A study of Homo sapiens with 54 samples.

Results

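Polyamine metabolism is described here through 8 named genes, ARG2, ODC1, AMD1, SRM, SMS, OAZ1, AZIN1 and SAT1, all of which were found among the 58735 genes of the bulk table and among the 36601 genes of the single-cell matrices. The genes were taken by name. The libraries come from H1, a human pluripotent stem cell line, turned into macrophages in flat culture or on a porous scaffold, which the labels give as a 2D and a 3D protocol. The bulk table holds 11 groups and 32 libraries. Day 12 of either protocol has 4 libraries. Days 16, 19 and 23 of the 3D protocol have 3 each without FBS (fetal bovine serum) in the title and 3 each with it, and the 3D groups titled SP6A, SP14 and E. coli have 2 each. The single-cell libraries, also 3D, number 1 per day, for days 7, 9 and 12. Every library carries the cell type label macrophage. The labels do not say what SP6A and SP14 stand for, how E. coli was applied, on which day those 3 groups were taken, or in which medium the groups without FBS were kept. All libraries derive from 1 line, and the labels do not say that replicates are separate cultures, so p-values measure only the spread between these samples.

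Polyamines (putrescine, spermidine and spermine) are small positively charged molecules that bind nucleic acids and are needed for growth and translation. Cells make putrescine from ornithine, extend it with aminopropyl groups taken from decarboxylated S-adenosylmethionine, and remove the products by acetylation, export and oxidation, while a protein called antizyme holds back the first enzyme. In macrophages the arginine that feeds this route is shared with nitric oxide synthesis, and spermidine is the source of hypusine, a modified residue of the translation factor EIF5A.

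Expression is given in TPM, transcript abundance scaled to the same total in each library and to transcript length. The libraries held 11862 to 13257 genes at 1 TPM or more and their replicates correlated at 0.891 to 0.968 (log2 scale). The pair of E. coli libraries stood apart, with 7954 and 8103 genes and a correlation of 0.657. Mitochondrial genes took 17.2 and 25.2% of their TPM and 4.24 to 10.9% in the other libraries. How many reads each bulk library had is unknown here. The 3 clone-named genes FP236383.2, FP236383.3 and FP671120.3 took 0.373 to 0.516% of the TPM in 2D and 5.55 to 32.3% in 3D groups other than E. coli, which leaves less of the TPM for every other gene. The 13 macrophage markers summed to 8623 to 22090 TPM in every library, and each library had at least 12 of them at 1 TPM. Markers of other cells differed between groups: the 10 megakaryocyte markers summed to 697.8 to 1218 TPM in 2D day 12 and 14.65 to 40.3 TPM in 3D day 12, and the 10 granulocyte progenitor markers to 1690 to 3079 against 284.2 to 425.7 TPM. In bulk RNA, fewer cells of a type and less RNA per cell cannot be told apart.

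OAZ1 and SAT1 made up nearly all of the summed TPM of the 8 genes. OAZ1 held 73.9 to 76.2% of the sum in the 4 libraries of 2D day 12 and 58.2 to 62.8% in those of 3D day 12. SAT1 held 18.4 to 20.4% and 31.4 to 35.1% in the same groups. In SP6A, SP14 and 3D day 16 with FBS the order was turned round, with SAT1 at 69.5 to 72.9% and OAZ1 at 23.5 to 28.5%. It was turned round too in 3D day 19 with FBS (SAT1 at 59 to 68.5%, OAZ1 at 27.9 to 37.3%) and in the second E. coli library (51.2 against 43.7%).

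**Figure D1:**
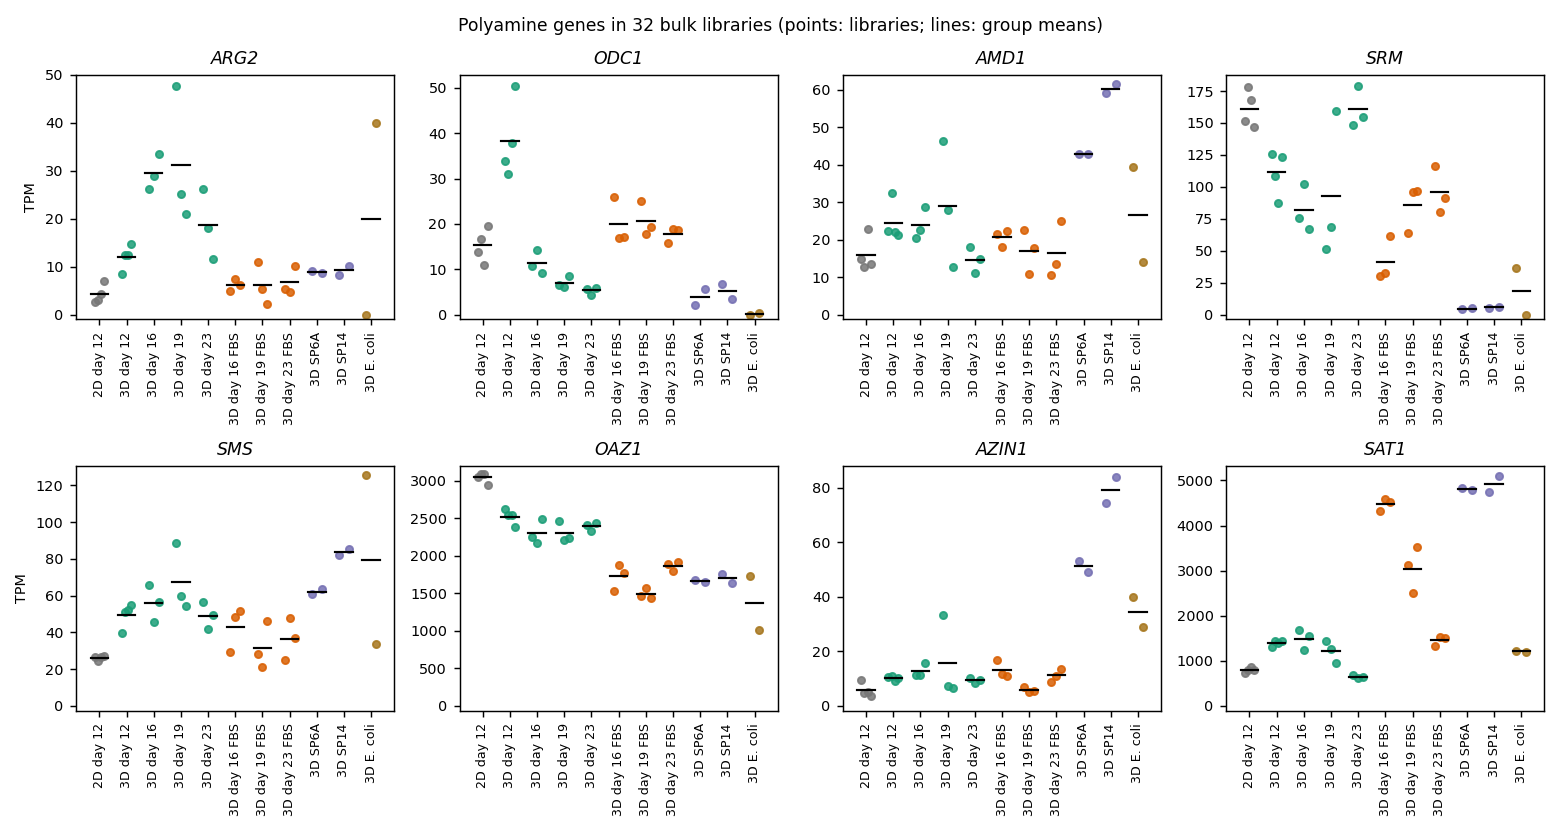
TPM (linear axis from 0, a scale of its own for each gene) of the 8 genes in each of the 32 bulk libraries; points are libraries and lines are group means. ODC1 is highest in the 3D day 12 libraries (30.99 to 50.42 TPM), and SAT1 is highest in SP6A, SP14 and 3D day 16 with FBS (4315 to 5100 TPM).

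At day 12 the 3D libraries held more RNA than 2D of the enzymes that make ornithine, putrescine and spermine and of SAT1, and less of SRM and OAZ1. The SRM and OAZ1 calls depended on the scaling and were lost with median-ratio scaling, as given below. Of the 8 genes 5 rose, 2 fell and 1 was not called by limma at an adjusted p of 0.05, beside 13.5% of 13131 genes tested that rose and 25.2% that fell. The median log2 change was 0.80 over the 8 genes and -0.21 over all genes tested. Median-ratio scaling (each library divided by its median ratio to the mean library) moved that overall median to -0.04 and the split of all calls from 1773 up and 3313 down to 2438 up and 2608 down.

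Gene positions below are those of RefSeq on GRCh38.p14, matched by symbol. ARG2 (ENSG00000081181, chromosome 14, 67619920 to 67651708), the mitochondrial arginase that releases ornithine from arginine, stood at 2.67, 2.99, 4.21 and 7.05 TPM in 2D and at 8.45, 12.38, 12.40 and 14.80 TPM in 3D. The groups did not overlap, and ARG2 rose by a log2 change of 1.36 (SE 0.289, limma adjusted p = 0.00429). In a single fit of all 32 bulk libraries this call was lost (adjusted p = 0.12).

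ODC1 (ENSG00000115758, chromosome 2, 10439968 to 10448327) encodes ornithine decarboxylase, the short-lived enzyme that makes putrescine and commits ornithine to the route. Its TPM was 13.70, 16.75, 11 and 19.50 in 2D and 33.87, 30.99, 37.80 and 50.42 in 3D, with every 3D library above every 2D library. The log2 change was 1.28 (SE 0.217, limma adjusted p = 0.00127).

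AMD1 (ENSG00000123505, chromosome 6, 110814617 to 110895713), which decarboxylates S-adenosylmethionine to give the aminopropyl donor, was at 14.92, 12.59, 22.88 and 13.63 TPM in 2D and at 22.19, 32.47, 21.93 and 21.19 TPM in 3D. The groups overlapped because of the third 2D library, and AMD1 was not called (log2 change 0.60, limma adjusted p = 0.0582). Without that library the adjusted p was 0.0154, and with median-ratio scaling 0.018.

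SRM (ENSG00000116649, chromosome 1, 11054589 to 11060018), spermidine synthase, went the other way. It was at 151.5, 178.1, 167.7 and 147.2 TPM in 2D and at 125.5, 108.9, 87.59 and 123.1 TPM in 3D. No 3D library reached the lowest 2D library, and the log2 change was -0.54 (SE 0.14, limma adjusted p = 0.0118). With median-ratio scaling the change was -0.33 and was no longer called (adjusted p = 0.115), nor was it after leaving the clone-named and mitochondrial genes out of the TPM (-0.37, adjusted p = 0.067) or in the fit of 32 libraries (adjusted p = 0.547).

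SMS (ENSG00000102172, chromosome X, 21940709 to 21994837), spermine synthase, was at 26.35, 24.53, 26.33 and 26.98 TPM in 2D and at 39.75, 51.22, 52.16 and 54.79 TPM in 3D. It rose by a log2 change of 0.89 (SE 0.146, limma adjusted p = 0.00102). Relative to each other, SRM stood at 545 to 726 TPM per 100 TPM of SMS in 2D and at 168 to 316 in 3D day 12. That ratio does not depend on how a library was scaled, and it would be lower from the SMS difference alone.

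OAZ1 (ENSG00000104904, chromosome 19, 2269486 to 2273488) encodes antizyme 1, which binds ornithine decarboxylase and brings it to the proteasome. Polyamines control it at translation by a ribosomal frameshift, which RNA levels do not show. Its TPM was 3055, 3095, 3089 and 2945 in 2D and 2624, 2539, 2541 and 2382 in 3D. The groups did not overlap and OAZ1 fell by 0.27 on the log2 scale (SE 0.0641, limma adjusted p = 0.00729), but with median-ratio scaling the change was -0.06 (adjusted p = 0.529), after leaving out the clone-named and mitochondrial genes it was -0.10 (adjusted p = 0.21), and without the mean-variance trend in limma the adjusted p was 0.145.

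AZIN1 (ENSG00000155096, chromosome 8, 102826302 to 102864200) encodes the antizyme inhibitor, an inactive relative of ornithine decarboxylase that takes antizyme away from it. It was at 9.48, 4.76, 5.17 and 3.76 TPM in 2D and at 10.40, 11.05, 9.02 and 10.18 TPM in 3D, where the first 2D library overlapped the 3D group. AZIN1 rose by a log2 change of 0.78 (SE 0.258, limma adjusted p = 0.0355), and the call was lost without any 1 of 7 of the 8 libraries (adjusted p 0.0583 to 0.086), with the first 2D library the exception.

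SAT1 (ENSG00000130066, chromosome X, 23783173 to 23786210), the acetyltransferase that marks spermidine and spermine for export and oxidation, was at 735.8, 784.4, 853.2 and 794.3 TPM in 2D and at 1313, 1446, 1397 and 1437 TPM in 3D. The lowest 3D library was above the highest 2D library, and SAT1 rose by a log2 change of 0.82 (SE 0.0789, limma adjusted p = 4.44e-05).

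Ratios within a library set the first enzyme beside its regulators. ODC1 stood at 0.356 to 0.662 TPM per 100 TPM of OAZ1 in 2D and at 1.22 to 2.12 in 3D day 12, with no overlap. AZIN1 stood at 0.128 to 0.31 per 100 TPM of OAZ1 in 2D and at 0.355 to 0.435 in 3D day 12, also with no overlap. Markers of several cell types differed between the same libraries. Of those tested, 8 of 9 megakaryocyte, 7 of 8 granulocyte progenitor, 9 of 9 monocyte, 4 of 6 mast cell, basophil or eosinophil and 3 of 9 erythroid markers fell in 3D. Monocyte markers summed to 8313 to 10070 TPM in 2D and 4641 to 6574 TPM in 3D. Of 8 stroma markers 3 rose and 1 fell, and the stroma list summed to 11.62 to 24.38 TPM in 2D and 10.2 to 84.6 TPM in 3D, where the ranges overlap. The part of these cells in the values of the 8 genes was not tested. The 10 cell division genes summed to 607.4 to 680.2 TPM in 2D and 679 to 877.2 TPM in 3D day 12, where 5 rose and 3 fell.

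**Figure D2:**
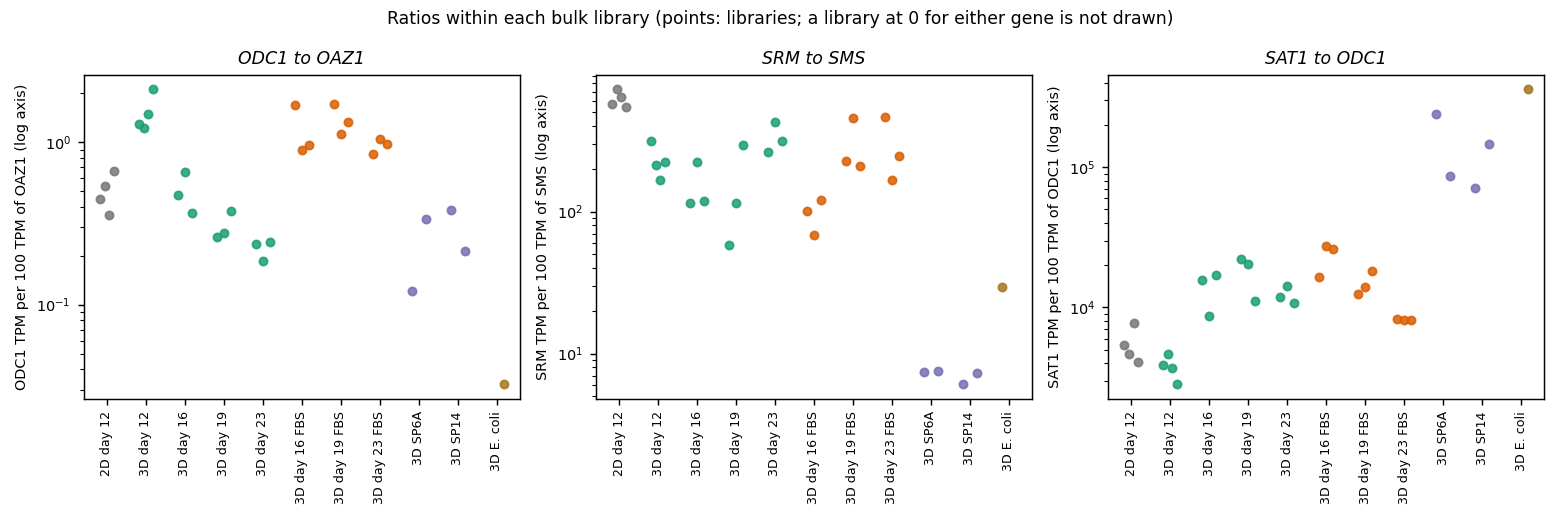
ODC1 per 100 TPM of OAZ1, SRM per 100 TPM of SMS and SAT1 per 100 TPM of ODC1 in each bulk library (log axes; points are libraries, and a library listed at 0 for either gene is not drawn). ODC1 to OAZ1 is above 0.8 in 3D day 12 and the FBS groups and below 0.7 elsewhere, and SRM to SMS is at 6.11 to 7.48 in SP6A and SP14.

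MYC, a transcription factor known to drive ODC1 and SRM through the E-box CACGTG, was at 5.91, 10.66, 14.98 and 8.71 TPM in 2D and at 24.78, 25.97, 28.49 and 24.69 TPM in 3D day 12. It rose by a log2 change of 1.35 (limma adjusted p = 0.00184), in the comparison where ODC1 rose and SRM fell. The SRM call was lost with median-ratio scaling (log2 change -0.33, limma adjusted p = 0.115) and in the other settings given above. The 250 bases before each annotated start (RefSeq, GRCh38.p14) were searched on both strands for CACGTG, the CRE motif TGACGTCA, the GC box GGGCGG and the TATA box TATAAA in 10 windows of 7 of the genes. Of 35116 windows in the whole table, 6.34% held CACGTG, 1.65% TGACGTCA, 42.6% GGGCGG and 10.7% TATAAA. The windows of ODC1 and SRM are shown because these genes share the E-box as background knowledge. Their values went in different directions here, within the limit just given for SRM. Capitals mark CACGTG, and both genes lie on the minus strand.
ODC1, before the gene's first start, chr2:10448328-10448577: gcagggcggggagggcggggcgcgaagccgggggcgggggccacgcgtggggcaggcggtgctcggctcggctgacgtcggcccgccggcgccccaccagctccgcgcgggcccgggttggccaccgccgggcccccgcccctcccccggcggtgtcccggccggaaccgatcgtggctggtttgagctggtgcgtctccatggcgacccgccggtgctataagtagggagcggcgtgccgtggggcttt
ODC1, 26 bases around the E-box before a second start that lies within the gene, chr2:10448026-10448051: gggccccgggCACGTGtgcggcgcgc
SRM, chr1:11060019-11060268: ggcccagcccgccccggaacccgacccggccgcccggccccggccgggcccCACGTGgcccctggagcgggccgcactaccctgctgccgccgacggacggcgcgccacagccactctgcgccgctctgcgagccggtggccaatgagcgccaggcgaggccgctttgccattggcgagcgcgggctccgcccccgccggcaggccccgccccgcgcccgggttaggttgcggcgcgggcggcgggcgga
The SRM window held 1 E-box, its first base 199 bases before the start, and 6 GC boxes. The window of the first ODC1 start held no CACGTG and 4 GC boxes, and the window of the second start held 1 CACGTG, its first base 29 bases before that start. ARG2 held 2 copies of TGACGTCA, shown in capitals with 10 bases on either side (plus strand).
ARG2, chr14:67619738-67619765: cagagtggggTGACGTCAtcgaaggcac
ARG2, chr14:67619846-67619873: aatgtggcggTGACGTCAcggggcgggc
AMD1, OAZ1, SMS and SAT1 held none of CACGTG, TGACGTCA and TATAAA, and SAT1 held no GC box either. These matches describe letters only.

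The other genes of the route were followed in 6 lists of 40 genes, of which 30 were tested in this comparison: 10 rose, 9 fell and 11 were not called, where 13.5% of all genes rose and 25.2% fell. All 3 tested genes of polyamine catabolism other than SAT1 fell, among them PAOX, the oxidase of acetylated polyamines (log2 change -1.48, limma adjusted p = 0.0105). ASL, which forms arginine in the urea cycle reaction, fell by 2.18 on the log2 scale (limma adjusted p = 6.2e-06), while OAT, which consumes ornithine in mitochondria, rose by 1.61 (limma adjusted p = 0.00279). ATP13A2, a lysosomal polyamine exporter, fell by 1.3 on the log2 scale (limma adjusted p = 0.00511). Of 8 genes of methionine and methylthioadenosine salvage 4 rose and 0 fell, and of 4 hypusine genes 0 rose and 2 fell.

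**Figure D3:**
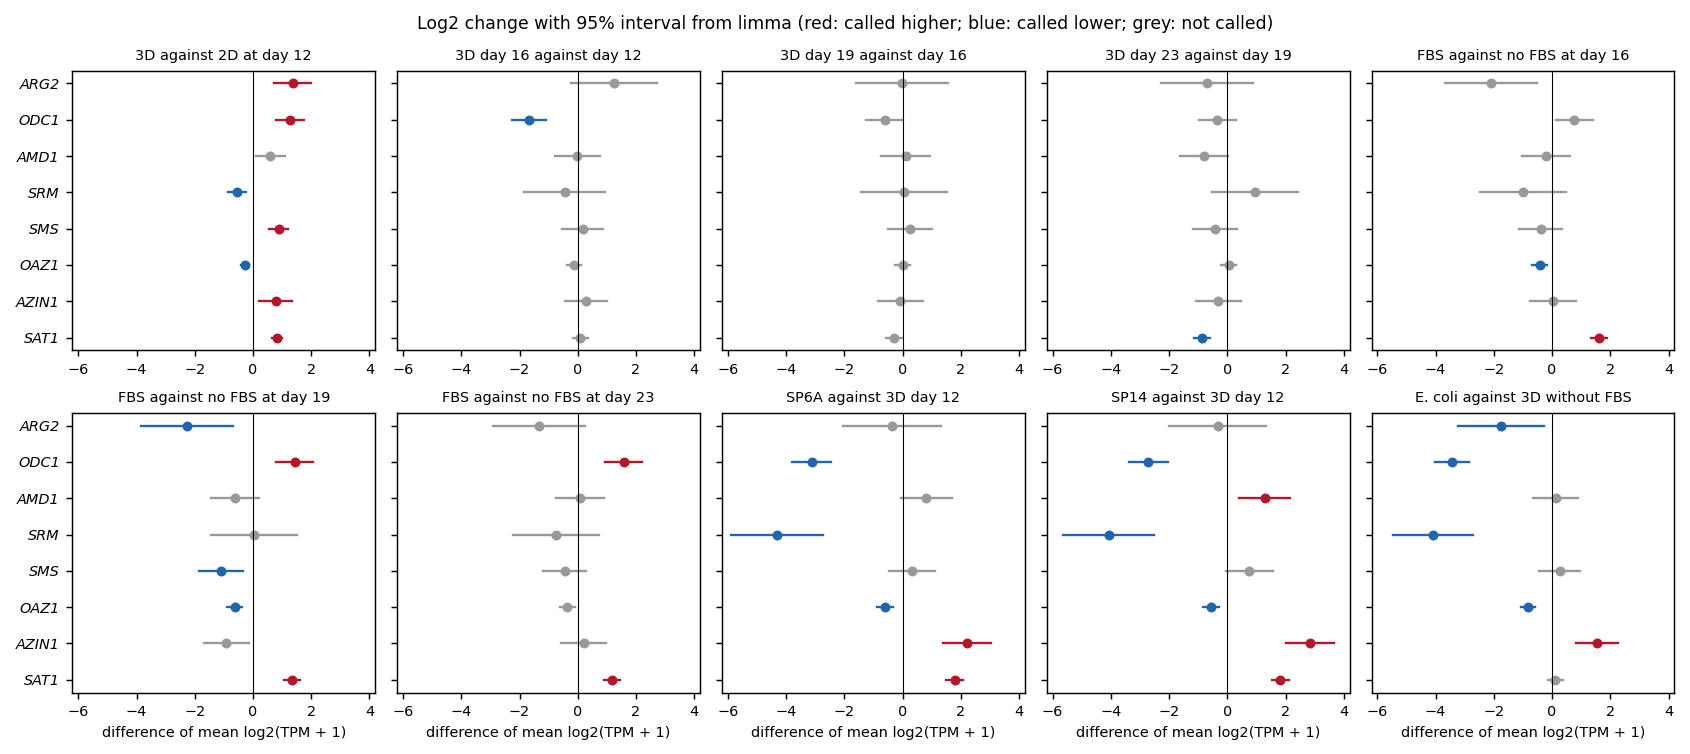
Difference of mean log2(TPM + 1) with its 95% interval from limma for the 8 genes in 10 comparisons; red points were called higher, blue points lower and grey points were not called at an adjusted p of 0.05. ODC1 is red in 3D against 2D and with FBS at days 19 and 23, and blue from day 12 to 16 and in SP6A, SP14 and E. coli.

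Over time in 3D without FBS, ODC1 fell and the other synthesis genes gave no calls. From day 12 to day 16 only ODC1 of the 8 genes was called, beside 10.2% of 13384 genes tested that rose and 6.65% that fell. Its TPM was 10.63, 14.22 and 9.16 at day 16, all below the lowest day 12 library, and it fell by 1.67 on the log2 scale (SE 0.285, limma adjusted p = 0.000179). It then stood at 6.43, 6.13 and 8.48 TPM at day 19 and at 5.67, 4.36 and 5.92 TPM at day 23. From day 12 to day 23 ODC1 fell by 2.62 on the log2 scale (SE 0.285, limma adjusted p = 3.43e-07). The median log2 change of the 8 genes from day 12 to day 16 was 0.03, against 0.18 over all genes. With median-ratio scaling the latter was -0.08 and the split of all calls turned from 1364 up and 890 down to 763 up and 1474 down. OAZ1 (log2 change -0.48, adjusted p = 0.000606; -0.13 before) and SAT1 (-0.27, adjusted p = 0.0473; 0.08 before) were then called lower as well.

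Markers of other cells moved from day 12 to day 16 as well. Of those tested 10 of 13 macrophage markers rose, while 6 of 8 monocyte, 5 of 6 granulocyte progenitor, 4 of 5 erythroid and 4 of 6 stroma markers and 9 of 10 cell division genes fell. The granulocyte progenitor list summed to 284.2 to 425.7 TPM at day 12 and 17.37 to 29.88 at day 16. Their part in the ODC1 difference was not tested. The cell division genes summed to 679 to 877.2 TPM at day 12 and 111.4 to 156.4 at day 16. At days 19 and 23 they summed to 505.4 to 605 and 214.3 to 230.8 TPM. ODC1 stood lower in every day 19 library than in any of day 16, a difference that was not called (log2 change -0.61, limma adjusted p = 0.651). MYC was at 16.31, 16.73 and 19.04 TPM at day 16, at 19.10, 22.81 and 12.65 at day 19 and at 8, 5.74 and 6.39 at day 23. It was not called from day 12 to day 16 (log2 change -0.56, limma adjusted p = 0.224) and fell by 1.82 on the log2 scale from day 12 to day 23 (limma adjusted p = 6.76e-05).

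SAT1 overlapped its day 12 range at days 16 and 19 and was lower at day 23. It was at 1675, 1232 and 1555 TPM at day 16, at 1432, 1254 and 943.5 at day 19 and at 676.6, 624.8 and 635.5 at day 23. The day 23 libraries were tight and lay below every other 3D library of any group, and SAT1 fell by 0.88 on the log2 scale from day 19 (SE 0.133, limma adjusted p = 8.6e-05) and by 1.11 from day 12 (SE 0.124, limma adjusted p = 5.21e-07). The comparisons of days 16 and 23 with day 12 share the day 12 libraries. From day 19 to day 23 SAT1 was the only one of the 8 genes called, beside 4.77% of all genes that rose and 8.26% that fell. Median-ratio scaling changed the split of those calls from 639 up and 1106 down to 876 up and 864 down. From day 12 to day 23, 0 of the 8 rose and 2 fell, beside 10.5% and 15.3% of all genes. The median log2 change of the 8 genes was -0.39 from day 19 to day 23 and -0.09 from day 12 to day 23, against -0.15 and -0.10 over all genes. Macrophage markers summed to 17510 to 19670 TPM at day 16, 14030 to 15350 at day 19 and 10380 to 10700 at day 23, and monocyte markers to 1198 to 1273 TPM at day 16 and 4623 to 5099 at day 23. Their part in the SAT1 difference was not tested.

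From day 16 to day 19 limma called 0 of the 8 genes, beside 0.426% of all genes that rose and 0.478% that fell, and 1 of the 8, SAT1, had an unadjusted p under 0.05 (log2 change -0.31, unadjusted p = 0.0302). With median-ratio scaling the count was also 0. The day 19 group was uneven. Its first library held 47.64 TPM of ARG2, 46.30 of AMD1, 88.55 of SMS and 33.20 of AZIN1, against 25.05 and 20.98, 27.87 and 12.82, 59.88 and 54.53, and 7.23 and 6.65 TPM in the other libraries, while the third library held 159.4 TPM of SRM against 51.31 and 68.82. Without the third library AMD1 was called lower from day 19 to day 23 (log2 change -1.26, adjusted p = 0.037).

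ARG2 was at 26.23, 28.94 and 33.50 TPM at day 16, all above the day 12 libraries, but was not called in the fit of 28 libraries (log2 change 1.25, limma adjusted p = 0.265). That fit includes the E. coli libraries, in which ARG2 was at 0 and 39.95 TPM. Without them it was called (log2 change 1.25, adjusted p = 0.0124). ARG2 passed ODC1 in these libraries: it stood at 24.9 to 39.9 TPM per 100 TPM of ODC1 at day 12 and at 204 to 366 at day 16, 247 to 741 at day 19 and 196 to 461 at day 23.

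SRM was at 75.29, 102.4 and 67.20 TPM at day 16 and at 148.1, 179 and 154.8 TPM at day 23, a level that overlaps 2D day 12. The difference from day 19 to day 23 was 0.95 on the log2 scale and was not called (95% interval -0.53 to 2.42, limma adjusted p = 0.447); in the fit without the E. coli libraries it was called (adjusted p = 0.0307). AMD1, SMS, OAZ1 and AZIN1 were called between none of these days: from day 12 to day 23 AMD1 differed by -0.70, SMS by -0.01, OAZ1 by -0.08 and AZIN1 by -0.10 on the log2 scale. At day 23 SMS was at 56.41, 41.76 and 49.20 TPM, within the range of day 12 but for 1 library, and OAZ1 was at 2407, 2330 and 2437 TPM, where day 12 held 2382 to 2624.

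Of 28 other genes of the route tested in 3D, 2 rose and 4 fell from day 12 to day 16, where 10.2% of all genes rose and 6.65% fell. ASS1, which makes argininosuccinate from citrulline, fell by 2.35 on the log2 scale (limma adjusted p = 0.000245), and SMOX, the oxidase of spermine, fell by 1.90 (limma adjusted p = 1.08e-05). The polyamine transporters ATP13A2 and ATP13A3 rose by 1.58 and 1.06 (limma adjusted p = 0.00389 and 0.00868). From day 16 to day 19 ASS1 alone of the 28 was called, and it rose by 2.31 (limma adjusted p = 0.00923). From day 12 to day 23 0 rose and 5 fell (10.5% and 15.3% of all genes), among them GATM, which takes arginine into creatine synthesis (-2.18, limma adjusted p = 2.89e-05), AHCY of the methionine cycle (-1.69, limma adjusted p = 0.000352), MRI1 of methylthioadenosine salvage (-1.52, limma adjusted p = 0.00211) and EIF5A, the factor that carries hypusine (-1.24, limma adjusted p = 0.000119). From day 19 to day 23, 1 rose and 7 fell (4.77% and 8.26% of all genes), with GATM (-3.02, limma adjusted p = 4.22e-06) the largest difference, followed by MRI1 (-1.69), ATP13A2 (-1.53) and ADI1 of the same salvage route (-1.51).

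With FBS in the title, SAT1 was higher than without it at every day and ODC1 was higher at days 19 and 23. At day 16 SAT1 was at 4315, 4582 and 4512 TPM with FBS, against 1675 TPM in the highest library without it, and it rose by 1.60 on the log2 scale (SE 0.133, limma adjusted p = 1.34e-08). At day 19 it was at 3117, 2493 and 3526 TPM (log2 change 1.34, SE 0.133, limma adjusted p = 1.35e-07), and at day 23 at 1318, 1524 and 1511 TPM (log2 change 1.17, SE 0.133, limma adjusted p = 1.26e-06). The groups did not overlap at any of the 3 days. The level with FBS itself came down with time: from day 16 to day 23 within FBS SAT1 fell by 1.63 on the log2 scale (SE 0.133, limma adjusted p = 1.44e-08), the only call among the 8 genes, beside 3.89% of all genes that rose and 4.02% that fell (median log2 change -0.17 over the 8 and -0.05 over all).

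ODC1 was at 26, 16.78 and 17.17 TPM with FBS at day 16, above all day 16 libraries without it, but the difference was not called (log2 change 0.76, limma adjusted p = 0.0888). At day 19 it was at 25.04, 17.74 and 19.22 TPM and rose by 1.43 (SE 0.304, limma adjusted p = 0.00128). At day 23 it was at 15.89, 18.87 and 18.63 TPM and rose by 1.58 (SE 0.304, limma adjusted p = 0.000813). Within FBS, ODC1 did not differ detectably between days 16 and 23 (log2 change -0.14, 95% interval -0.77 to 0.50, limma adjusted p = 0.896). Per 100 TPM of OAZ1, ODC1 stood at 0.842 to 1.72 in the 9 FBS libraries and at 0.187 to 0.655 in the 9 libraries of the same days without FBS.

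OAZ1 was lower with FBS. It was at 1535, 1876 and 1775 TPM at day 16, at 1459, 1574 and 1437 at day 19 and at 1888, 1800 and 1914 at day 23, against 2170 to 2489 TPM in the 9 libraries without FBS, with no overlap. OAZ1 fell by 0.42 on the log2 scale at day 16 (limma adjusted p = 0.0213) and by 0.63 at day 19 (limma adjusted p = 0.000666), and was not called at day 23 (log2 change -0.36, limma adjusted p = 0.0576; 0.00202 without the E. coli libraries in the fit). The day 16 call was lost without the third library of day 16 (limma adjusted p = 0.1) and without the first FBS library (0.111). It was lost too after leaving out the clone-named and mitochondrial genes (0.0772), with no filter on low values (0.0632) and without the mean-variance trend (0.146). The clone-named genes alone took 18 to 27.4% of the TPM with FBS at day 16 and 12.5 to 20.5% without.

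ARG2 was at 4.85, 7.34 and 6.26 TPM with FBS at day 16, at 10.99, 5.41 and 2.24 at day 19 and at 5.42, 4.60 and 10.06 at day 23, below every library of the same day without FBS. It fell by 2.27 on the log2 scale at day 19 (SE 0.762, limma adjusted p = 0.0316). It was not called at day 16 (log2 change -2.10, limma adjusted p = 0.0577) or day 23 (-1.35, adjusted p = 0.278), and in the fit without the E. coli libraries it was called at both (adjusted p = 0.000252 and 0.0138). At day 19 the call was lost without the first or the second library of day 19 (adjusted p = 0.129 and 0.0579) and without the second or the third FBS library (adjusted p = 0.067 and 0.141). It was also lost with a pseudocount of 0.1 (adjusted p = 0.139), with no filter on low values (0.085) and after leaving out the clone-named and mitochondrial genes (0.0572).

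SMS was at 28.02, 21.17 and 45.94 TPM with FBS at day 19 and fell by 1.11 on the log2 scale (limma adjusted p = 0.027), with no overlap with day 19 without FBS. The call was lost without the first library of day 19 (log2 change -0.90, limma adjusted p = 0.129) and without the first or the second FBS library (0.0724 and 0.13). It was also lost with no filter on low values (limma adjusted p = 0.0603). SRM was at 29.89, 32.91 and 61.50 TPM with FBS at day 16, below the 3 libraries without FBS, and was not called (log2 change -1.01, limma adjusted p = 0.37; 0.017 without the E. coli libraries in the fit). AZIN1 was at 7.06, 5 and 5.60 TPM with FBS at day 19, overlapping the 33.20, 7.23 and 6.65 TPM without it, and was not called (log2 change -0.92, limma adjusted p = 0.0763). Without the second or the third library of day 19, AZIN1 was called lower (adjusted p = 0.0313 and 0.0192). AMD1 was called at no day.

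Among the 8 genes, 1 rose and 1 fell with FBS at day 16, beside 8.09% and 10.4% of all genes. At day 19, 2 rose and 3 fell, beside 12.9% and 12.7%, and at day 23, 2 rose and 0 fell, beside 8.99% and 5.11%. Leaving the clone-named and mitochondrial genes out changed the split of all calls at day 19 from 1721 up and 1694 down to 2241 up and 1370 down, and median-ratio scaling changed that at day 23 from 1203 up and 684 down to 884 up and 957 down. The median log2 change of the 8 genes was -0.30, -0.62 and -0.13 at days 16, 19 and 23, against -0.01, 0 and 0.16 over all genes. The 3 comparisons rest on different libraries. Macrophage markers summed to 15920 to 19900 TPM with FBS at day 16, a range that overlaps day 16 without it. At day 19 they summed to 16430 to 17370 TPM with FBS and 14030 to 15350 without. At day 23 they summed to 15630 to 16760 TPM, above the 10380 to 10700 without it. Monocyte markers summed to 918.2 to 1123 TPM with FBS at day 19 (1850 to 1906 without) and 2014 to 2335 at day 23 (4623 to 5099 without). At day 16 their ranges overlapped (1010 to 1200 and 1198 to 1273). The part of these markers was not tested. The test of whether the FBS difference itself changed with day called 0 of the 8 genes in limma, beside 13.9% of all genes in either direction, and 0 of the 8 had an unadjusted p under 0.05. SAT1 came closest to a change of that kind at an adjusted p of 0.264, with an FBS difference 0.43 smaller at day 23 than at day 16 on the log2 scale, and was called with median-ratio scaling (adjusted p = 0.00259).

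With FBS, MYC and ODC1 were called in opposite directions at day 19 and were both called higher at day 23. At day 16 MYC was called lower and ODC1 was not called. MYC was at 2.01, 2.01 and 3.12 TPM at day 16, at 2.64, 0.23 and 1 at day 19 and at 13.05, 10.94 and 17.80 at day 23. It fell at days 16 and 19 (log2 change -2.46 and -3.17, limma adjusted p = 7.07e-06 and 1.37e-07) and rose at day 23 (log2 change 0.94, limma adjusted p = 0.0494). The part of MYC in the ODC1 values was not tested. The cell division genes summed to 113.6 to 177 TPM with FBS at day 16, 142.9 to 258.9 at day 19 and 91.28 to 234.6 at day 23. At day 19 7 of the 10 fell and 0 rose with FBS. The part of cell division in the ODC1 values was not tested.

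SMOX, which oxidises spermine directly, rose with FBS at day 16 (log2 change 2.75, limma adjusted p = 2.23e-07) and day 19 (2.80, limma adjusted p = 1.2e-07), beside SAT1. At day 23 it rose by 1.16 (limma adjusted p = 0.00526). Of the 28 other genes of the route, 4 rose and 6 fell with FBS at day 16, 4 and 5 at day 19, and 5 and 2 at day 23. The shares of all genes that rose and fell were 8.09% and 10.4%, 12.9% and 12.7%, and 8.99% and 5.11%. SLC18B1, a vesicular polyamine transporter, rose at day 16 (2.12, limma adjusted p = 0.0214), and EIF5A and the second antizyme OAZ2 fell (-1.66 and -1.47, limma adjusted p = 1.51e-05 and 0.00143). At day 19 ASS1 (-2.73, limma adjusted p = 7.95e-05), AHCY (-2.55, limma adjusted p = 8.11e-06) and OAT (-1.80, limma adjusted p = 0.000605) fell. At day 23 ASS1 fell (-3.25, limma adjusted p = 1.47e-05) while GATM (2.01), ATP13A2 (1.77) and MRI1 (1.65) rose (limma adjusted p = 0.000308, 0.00317 and 0.00323). The FBS difference itself changed with day for 6 of the 28, the largest being ASS1 (limma adjusted p = 0.00603), ATP13A2 (0.00647), GATM (0.0012) and MRI1 (0.0129). Within FBS, SLC18B1 alone of the 28 was called from day 16 to day 23 and fell by 2.96 on the log2 scale (limma adjusted p = 0.0039).

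SP6A and SP14 held far less SRM and ODC1 RNA than 3D day 12 and far more SAT1 and AZIN1. The labels give SP6A and SP14 no day, so a difference of day cannot be told apart from a difference of label. Both comparisons share the 4 day 12 libraries, so they are not independent of each other. In SP6A 2 of the 8 genes rose and 3 fell, beside 16.9% and 11.3% of all genes, and in SP14 3 rose and 3 fell, beside 18.1% and 13.1%. Median-ratio scaling turned the split of all calls in SP6A from 2268 up and 1506 down to 1595 up and 2150 down, and in SP14 from 2417 up and 1756 down to 1804 up and 2409 down. The median log2 change of the 8 genes was -0.01 in SP6A and 0.22 in SP14, against 0.18 and 0.09 over all genes, or -0.07 and -0.15 over all genes with that scaling.

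SRM was at 4.5 and 4.74 TPM in SP6A and at 5.03 and 6.23 TPM in SP14, below every other library but 1 of E. coli; day 12 held 87.59 to 125.5 TPM. It fell in both, with a log2 change of -4.31 in SP6A (SE 0.757, limma adjusted p = 0.000126) and -4.07 in SP14 (SE 0.757, limma adjusted p = 0.000198). SMS was not low in the same libraries, at 61.06 and 63.36 TPM in SP6A and 82.29 and 85.34 in SP14, all above the 39.75 to 54.79 TPM of day 12. The difference of SMS was not called (log2 change 0.33 and 0.76, limma adjusted p = 0.573 and 0.144; 0.0379 for SP14 without the E. coli libraries in the fit). SRM stood at 7.37 and 7.48 TPM per 100 TPM of SMS in SP6A and at 6.11 and 7.30 in SP14, where the other groups apart from E. coli held 57.9 to 726.

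ODC1 was at 2.02 and 5.54 TPM in SP6A and at 6.69 and 3.49 TPM in SP14. Both groups overlap 3D day 23 without FBS, at 4.36 to 5.92 TPM. It fell in both (log2 change -3.12, SE 0.323, limma adjusted p = 1.12e-07, and -2.72, SE 0.323, limma adjusted p = 6.1e-07). AMD1 was at 42.92 and 42.79 TPM in SP6A and at 59.17 and 61.58 in SP14, above the highest day 12 library at 32.47. AMD1 rose in SP14 (log2 change 1.29, limma adjusted p = 0.0221) and was not called in SP6A (0.81, adjusted p = 0.169). The SP14 call was lost without either SP14 library (adjusted p = 0.107 and 0.129), where the library left is assumed to vary like the other groups, and with median-ratio scaling (adjusted p = 0.0593). ARG2 was at 9.18 and 8.74 TPM in SP6A and at 8.32 and 10.12 in SP14, overlapping day 12, and was not called (limma adjusted p = 0.792 and 0.816).

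AZIN1 was at 53.06 and 49.17 TPM in SP6A and at 74.20 and 83.93 TPM in SP14, above every library of every other group, where the highest was the E. coli library at 40.02. It rose by 2.23 (SE 0.398, limma adjusted p = 0.000152) and 2.84 (SE 0.398, limma adjusted p = 5.94e-06) on the log2 scale. Its antisense neighbour AZIN1-AS1 was listed at 2.83 to 5.64 TPM in these 4 libraries and at 3.35 to 11.25 TPM at day 12; whether reads were counted by strand is unknown. OAZ1 was at 1671 and 1652 TPM in SP6A and at 1760 and 1641 in SP14, below the day 12 libraries, and fell (log2 change -0.60 and -0.57, limma adjusted p = 0.00126 and 0.00176). AZIN1 stood at 2.98 to 5.11 TPM per 100 TPM of OAZ1 in the 4 SP libraries, against 0.355 to 0.435 at day 12.

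SAT1 was at 4837 and 4797 TPM in SP6A and at 4753 and 5100 TPM in SP14, the highest of all groups. It rose by 1.79 (SE 0.141, limma adjusted p = 1.57e-09) and 1.82 (SE 0.141, limma adjusted p = 8.44e-10). Macrophage markers summed to 19690 to 22090 TPM in these 4 libraries and to 9115 to 11750 at day 12, where 9 of 13 rose and 1 fell in each of SP6A and SP14. Granulocyte progenitor markers fell for 4 of 6 tested in each, and monocyte markers for 5 of 8 in SP6A and 6 of 8 in SP14, to sums of 1283 to 1560 TPM from 4641 to 6574 at day 12. The part of these in the values of the 8 genes was not tested. MYC fell in SP6A, at 6.22 and 7.99 TPM (log2 change -1.74, limma adjusted p = 0.000346), and was not called in SP14, at 18.94 and 25.10 TPM (-0.24, limma adjusted p = 0.652). SRM and ODC1 were low in both.

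Of the 28 other genes of the route, 7 rose and 3 fell in SP6A (16.9% and 11.3% of all genes) and 10 rose and 3 fell in SP14 (18.1% and 13.1%). GATM (log2 change 2.42 and 2.79, limma adjusted p = 2.79e-05 and 3.46e-06) and SLC18B1 (2.37 and 2.89, limma adjusted p = 0.00954 and 0.00179) rose in both, and ASS1 fell in both (-2.35 and -2.43, limma adjusted p = 0.000506 and 0.000298). EIF5A fell in both (-2.04 and -2.12, limma adjusted p = 6.82e-07 and 2.9e-07), and DOHH, the hydroxylase that completes hypusine, rose in both (1.95 and 2.18, limma adjusted p = 0.00664 and 0.00238). The EIF5A value in SP14, the DOHH value in SP6A and that of SMOX with FBS at day 23 were added after they were seen. Between SP14 and SP6A limma called 0 of the 8 genes, beside 0.0224% of all genes that rose and 0.0374% that fell, and 0 of the 8 had an unadjusted p under 0.05. The median log2 difference of the 8 genes was 0.32, against -0.03 over all genes. The widest difference was AZIN1, 0.62 higher in SP14 on the log2 scale (95% interval -0.33 to 1.57).

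As the labels give the E. coli libraries no day, they were set against the average of the 4 groups of the 3D protocol that have no FBS, SP6A or SP14 in the title. They differ from each other for several of the genes: ARG2 was at 0 and 39.95 TPM, SRM at 36.65 and 0, SMS at 125.4 and 33.82, AMD1 at 39.44 and 13.92 and OAZ1 at 1732 and 1015. Of the 8 genes 1 rose and 4 fell, beside 13.8% and 42.7% of all genes. The median log2 change of the 8 genes was -0.37, against -0.84 over all genes. With array weights, which give less weight to libraries that differ from their group, 2 of the 8 were called. The calls over all genes fell as well under that setting, from 7558 to the number given in the last paragraph.

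ODC1 was at 0 and 0.33 TPM with E. coli, below every other library of the table, and fell (fitted log2 change -3.42, limma adjusted p = 7.62e-10). That size depends on the pseudocount (at 0.1 it was -5.76), and with array weights the call was lost (adjusted p = 0.0784). AZIN1 was at 40.02 and 28.77 TPM, against 6.65 to 33.20 in the libraries without FBS, and rose by 1.55 (SE 0.349, limma adjusted p = 0.000668), a call lost with array weights (adjusted p = 0.43). AZIN1-AS1 was at 16.59 and 18.80 TPM in the same libraries, its highest in the table. SAT1 was at 1225 and 1190 TPM, within the range of the 3D libraries without FBS, and was not called (log2 change 0.11, limma adjusted p = 0.482); with median-ratio scaling it was called higher by 0.29 (adjusted p = 0.0107).

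SRM fell by 4.10 on the log2 scale (limma adjusted p = 1.76e-05), by 1.48 without the second library (adjusted p = 0.00312) and by 6.72 without the first (adjusted p = 1.98e-12). OAZ1 fell by 0.84 (limma adjusted p = 1.94e-06), and by 0.46 without the second library (adjusted p = 0.000537). ARG2 was called lower (log2 change -1.76, limma adjusted p = 0.0388), and this turned to 0.92 without the first library (adjusted p = 0.112) and -4.44 without the second (adjusted p = 1.31e-07). With a pseudocount of 0.1 the change was -3.37. The call was lost without the first library of day 19 or of day 23 (adjusted p = 0.0535 and 0.0523), with median-ratio scaling (0.0731), with no filter on low values (0.084) and with array weights (0.529). SMS was not called (log2 change 0.26, limma adjusted p = 0.525), and was called higher by 1.19 without the second library (adjusted p = 0.00543). Mast cell, basophil or eosinophil markers summed to 1159 and 1977 TPM in these libraries, and cell division genes to 29.47 and 32.81. Of 13 macrophage markers 4 rose and 7 fell, and mitochondrial genes took the 17.2 and 25.2% of TPM given above. The part of these in the values of the 8 genes was not tested. Of the 28 other genes of the route 5 rose and 17 fell, where 13.8% of all genes rose and 42.7% fell, with OAT (-4.56, limma adjusted p = 7.47e-11), DHPS, which starts hypusine synthesis (-3.08, limma adjusted p = 0.000566), and PAOX (-2.53, limma adjusted p = 0.00118) among the falls and SMOX (3.58, limma adjusted p = 6.96e-11) among the rises. MYC was at 28.39 and 36.93 TPM and rose (log2 change 1.03, limma adjusted p = 0.00479).

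Ordered by group mean, ODC1 ran from 38.27 ± 8.57 TPM (SD, n = 4) in 3D day 12 through 20.67 ± 3.86, 19.98 ± 5.21 and 17.80 ± 1.66 TPM (SD, n = 3 each) with FBS at days 19, 16 and 23, 15.24 ± 3.69 TPM (SD, n = 4) in 2D day 12, 11.34 ± 2.60, 7.01 ± 1.28 and 5.32 ± 0.838 TPM (SD, n = 3 each) at days 16, 19 and 23, and 5.09 ± 2.26 and 3.78 ± 2.49 TPM (SD, n = 2 each) in SP14 and SP6A to E. coli. Of its 10 pairs of neighbouring groups 6 overlapped, and 3D days 12, 16 and 19 and SP6A stood clear of the next group below. SAT1 ran from 4927 ± 245 TPM (SD, n = 2) in SP14 to 645.6 ± 27.4 TPM (SD, n = 3) at 3D day 23, with 5 of 10 neighbouring pairs overlapping. For SRM, AZIN1 and OAZ1 7 of 10 neighbouring pairs overlapped, for AMD1 9, and for SMS and ARG2 all 10.

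Across the 11 group means of log2(TPM + 1), which share libraries' scaling and include both time and treatment, SRM and AZIN1 ran opposite (Pearson r = -0.931) and AMD1 and AZIN1 ran together (r = 0.891). Without E. coli these were -0.941 and 0.934 over 10 groups. SP6A and SP14 lay far from the rest of those 10. Their mean log2 values were 2.49 and 2.723 for SRM, against 5.333 to 7.337 in the rest. For AZIN1 they were 5.703 and 6.32, against 2.698 to 3.796, and for AMD1 5.455 and 5.939, against 3.946 to 4.735. No correlation was computed without SP6A and SP14, so how far they carry these values is unknown. For ODC1 and SAT1 r was 0.04. Among 8697 genes with a mean of at least 5 TPM, those most like ODC1 over the 11 means were ZNF714 (r = 0.936), MT1X (0.928) and YTHDF3-AS1 (0.919), and those most like SAT1 were SSBP2 (0.978), SMPDL3A (0.966) and SLC40A1 (0.966). The nearest to the other genes were LPCAT4 for SRM (0.974), VPS26C for SMS (0.943), ATF2 for AMD1 (0.976), TIMM8B for OAZ1 (0.974), CCRL2 for AZIN1 (0.989) and ARPC2 for ARG2 (0.885). These are descriptions over few groups, picked as the highest of many.

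Copies of the genes elsewhere in the genome were low in the bulk table. ODCP reached 1.64 TPM, SRMP2 3.61, AMD1P1 2.61 and AMD1P3 2.24 at most in any library, and each was at 1 TPM or more in at most 3 of 32 libraries. How reads that match several places were assigned is unknown.

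The single-cell libraries place the 8 genes in cell types at days 7, 9 and 12. Counts of unique molecular identifiers (UMIs) were summed over the cells of a class, so intervals cover counting error only, and with 1 library a day no difference between days or classes was tested. The libraries kept 6537, 11251 and 7580 cells with a median of 24171, 13003 and 16607 UMIs, and shared 17 to 24 cell barcodes pairwise. Clusters made without the 8 genes gave 10 named classes. At day 12, 2042 of 7580 cells (26.9%, exact binomial interval 25.9 to 28%) were macrophage-like and 3783 (49.9%, interval 48.8 to 51%) stroma-like, while all libraries carry the label macrophage. At days 7 and 9 macrophage-like cells numbered 0 and 6, so their values are given for day 12 only. The counts were not corrected for free RNA in the droplets. The classes rest on rebuilt clusters, and 35.3% of day 9 cells stayed unnamed.

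Macrophage-like cells at day 12 had the highest SAT1 level of the 7 named classes with at least 50 cells. SAT1 was at 845.2 CPM (UMIs scaled to the same total in each class, 95% Poisson interval 838.2 to 852.4) in macrophage-like cells and at 67.80 CPM (65.71 to 69.95) in stroma-like cells, the lowest class, with 493.5 CPM in granulocyte progenitor-like and 453.2 in megakaryocyte-like cells between them. SMS was at 234.9 CPM (231.1 to 238.6) in macrophage-like cells and at 222.1 (209.8 to 235) in endothelium-like cells, whose intervals overlap, and at 76.20 in stroma-like cells. SRM was at 147.4 CPM in macrophage-like and 74.32 in stroma-like cells, and highest in mast cell, basophil or eosinophil-like cells at 212.4. AMD1 (114 against 47.69 CPM), OAZ1 (1081 against 322.3) and AZIN1 (86.34 against 55.67) were likewise higher in macrophage-like than in stroma-like cells.

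ODC1 and ARG2 had the other order. ODC1 was at 87.07 CPM (84.81 to 89.37) in macrophage-like and 102.3 CPM (99.68 to 104.9) in stroma-like cells. ARG2 was at 21.38 CPM (20.27 to 22.54) in macrophage-like and 109.1 CPM (106.5 to 111.8) in stroma-like cells, its highest class, and at 5.89 (4.59 to 7.44) in granulocyte progenitor-like and 6.38 (4.44 to 8.87) in mast cell, basophil or eosinophil-like cells, its lowest. Stroma markers summed to 10.2 to 84.6 TPM in the bulk 3D day 12 libraries, against 9115 to 11750 TPM of macrophage markers, so the single-cell and bulk libraries of day 12 hold different mixtures.

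**Figure D4:**
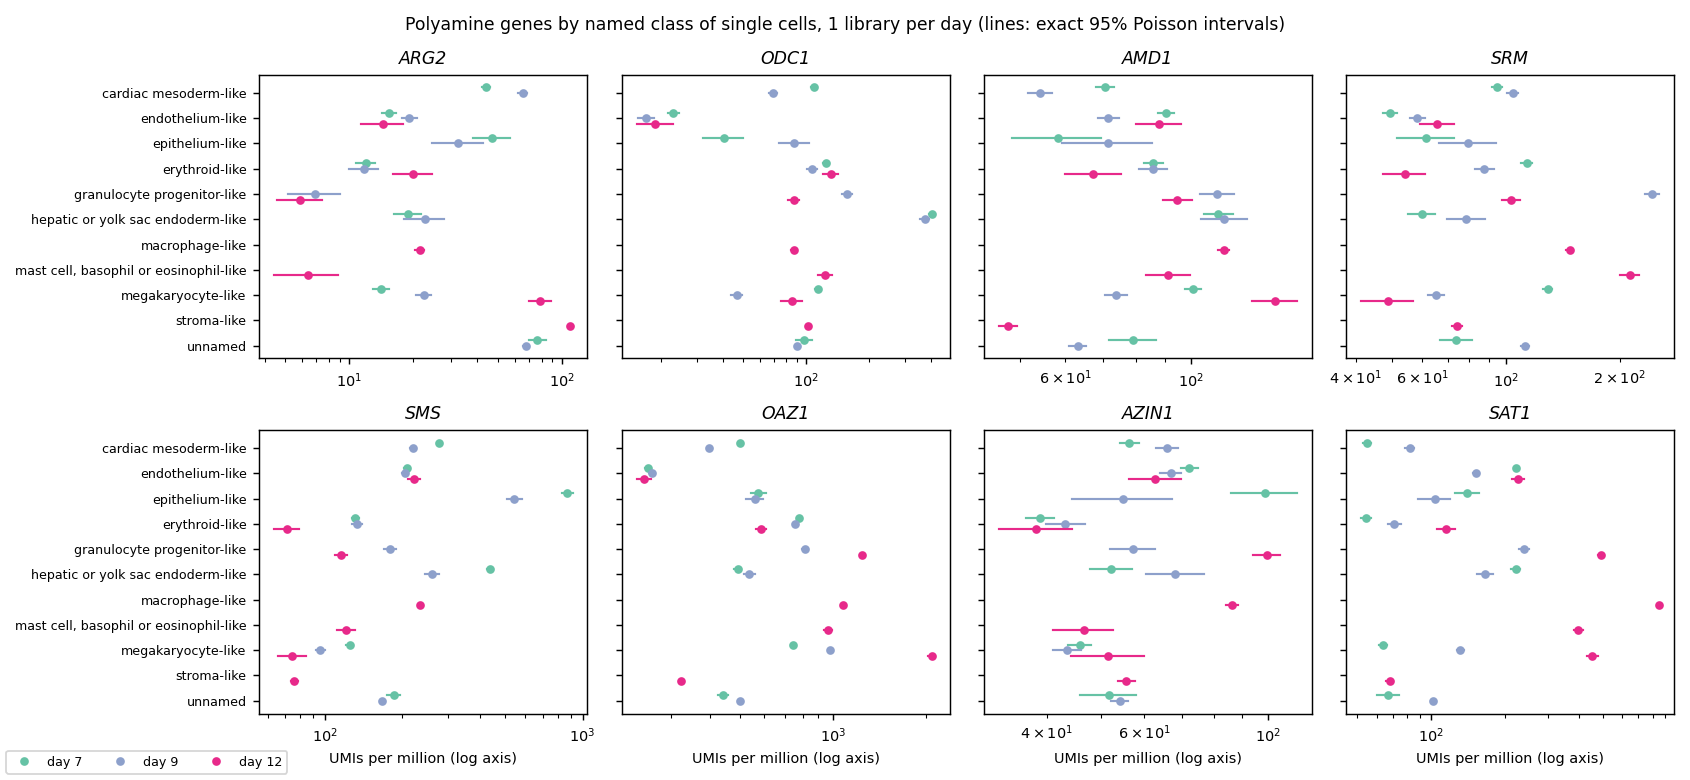
CPM (scaled UMIs, log axes) of the 8 genes in each class of single cells with at least 50 cells, by day (colours), with exact 95% Poisson intervals that cover counting error only; unnamed cells are drawn in the bottom row. SAT1 of macrophage-like cells at day 12 (845.2 CPM) is the rightmost point of its panel, and ODC1 is lowest in endothelium-like cells among the named classes at all 3 days.

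Macrophage-like cells fell into 2 clusters at day 12, whose levels of these genes are given without a test. One, of 643 cells, was led by genes that include MRC1 and CD163L1 and its division genes summed to 1688 CPM; the other, of 1399 cells, was led by the chemokine and cytokine genes CCL3L1, CCL4L2, CCL4, CCL3, IL1B and IL6, with 985.3 CPM of division genes. The median depth of these clusters was 32088 and 28985 UMIs, above that of the library. In the first cluster AMD1 was at 154.2 CPM, SRM at 179.2 and ODC1 at 101, against 93.92, 131.5 and 80.13 in the second. In the second SMS was at 278.9 CPM, AZIN1 at 102.1 and SAT1 at 893.8, against 146.5, 54.62 and 747.8 in the first. OAZ1 was at 1141 and 1051 CPM and ARG2 at 24.17 and 19.99 in the first and the second. The Poisson intervals of ARG2 were 22.13 to 26.34 and 18.68 to 21.37 CPM. Such intervals cover counting error only and are narrow at this depth. How many of all genes differ as much between the clusters was not computed, so these values do not set the 8 genes apart.

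Outside the macrophage-like cells the genes ranged widely. ODC1 was highest in hepatic or yolk sac endoderm-like cells, at 402.6 CPM on day 7 and 371.1 on day 9, and lowest in endothelium-like cells, at 23.01, 16.95 and 18.79 CPM on days 7, 9 and 12. The summed division genes stood at 469 and 442.4 CPM in the endoderm-like cells on days 7 and 9. In cardiac mesoderm-like cells they stood at 1074 and 766.9 CPM, and ODC1 at 109 and 69.50 CPM. The part of division in the ODC1 levels was not tested. SMS was highest in epithelium-like cells at 873.8 CPM on day 7 and 544.3 on day 9, and OAZ1 in megakaryocyte-like cells at 982.7 CPM on day 9 and 2092 on day 12. SRM reached 243.5 CPM in granulocyte progenitor-like cells on day 9. The ratio of the highest to the lowest named class at day 12 was 18.5 for ARG2, 12.5 for SAT1, 8.54 for OAZ1, 6.99 for ODC1, 4.37 for SRM, 3.30 for SMS, 2.94 for AMD1 and 2.60 for AZIN1.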

How the data were processed

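Bulk RNA was prepared with TRIzol and SMART-seq2 and single cells with a 10x Genomics kit, per the labels' protocols. The authors deposited TPM of 58735 genes in 1 table of 32 libraries; the submitters' processing notes list, for the series as a whole, HISAT2, DESeq2, HTSeq 0.11.1 and Trim Galore 0.4.4 with the builds hg38 and GRCh38, but not the program behind the TPM. The authors deposited UMI counts per cell, made with Cell Ranger 7.1.0 (days 7 and 9) and 7.0.0 (day 12), per the file headers.

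TPM were used as deposited. Group differences were tested gene by gene on log2(TPM + 1) with limma 3.58.1 (R 4.3.3, eBayes with trend, group means only), for genes with a mean of at least 1 TPM, in a fit of 8 libraries (3D against 2D, 13131 genes) and 1 of 28 (all 3D groups, 13384 genes), with Benjamini-Hochberg adjustment over all genes tested and a threshold of 0.05. "Rose" and "fell" mean a call. Fold sizes are on the log2(TPM + 1) scale, which understates low genes. The fit was tested on simulated data. Cells needed 1000 UMIs, 500 genes and at most 15% mitochondrial counts; doublets were removed with Scrublet (230, 476 and 381 cells), and Leiden clusters (scanpy 1.11.5, resolution 0.5) were named from fixed markers where at least 5 reached 20 CPM and 2 times the level of other cells. All 8 genes are named; of the other lists, up to 4 called genes a comparison with the largest change and at least 5 TPM in the higher group; MYC; and the genes of most similar pattern. The members and lists were chosen with earlier results of these data known. The chromatin libraries (8 of accessibility and 11 of immunoprecipitation) were not used here.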

Additional observations from a re-analysis of the deposited data

Results flagged for a closer look

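AMD1 in 3D day 12 was flagged because 1 of its 4 libraries, the second, at 32.47 TPM, stood far from the others, which lay at 21.19, 21.93 and 22.19 TPM. Chance flags about 1 in 20 groups of 4 by this measure. Each of the 8 genes was looked at in 2D day 12 and in 3D day 12. This was the only flag, which is near what chance gives. Without that library AMD1 was still not called in 3D against 2D.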

How the results depend on the processing

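Of 1744 changes of a setting for single genes, 1667 left the call unchanged, 45 lost a call, 31 gained 1 and 1 reversed. The reversal was ARG2 in E. coli, with a log2 change of 0.92 without the first E. coli library and -4.44 without the second. Some differences that were not called changed sign too. AZIN1 from day 19 to day 23 ran from -0.69 to 0.39 as libraries were left out in turn. Counts over all genes under several of these settings are given in the last paragraph. Where none is given, a change among the 8 genes cannot be set beside a change over all genes. The number of the 8 genes called moved by over 1.5 times as follows. With FBS at day 16 (2 called) it was 1 with no filter on low values, after leaving out the clone-named and mitochondrial genes and without the trend, and 4 with array weights and without the E. coli libraries in the fit. With FBS at day 19 (5 called) it was 3 with no filter. With FBS at day 23 (2 called) it was 4 with array weights and without the E. coli libraries. It was 3 for day 16 against day 12 (1 called) and 1 for the FBS by day interaction (0 called) with median-ratio scaling. With array weights and without the E. coli libraries it was 2 for day 16 against day 12, for day 23 against day 19 and for day 23 against day 16 within FBS (1 called each). It was 2 in E. coli with array weights (5 called) and 4 in 3D against 2D in 1 fit of 32 libraries (7 called).

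Leaving out each library in turn gave 1 to 2 called with FBS at day 16, 3 to 6 at day 19 and 1 to 2 for day 23 against day 19. It gave 6 to 7 in 3D against 2D, 5 to 6 in SP14 and 4 to 6 in E. coli. No count over all genes is given here for leaving out libraries with FBS at day 19, in 3D against 2D or in E. coli. Replicate numbers gave no sign of pairing. Same-numbered libraries correlated at -0.065 to 0.0504 in their deviations from group means (34 checks, which share libraries). Such correlations cannot exclude that samples were paired. With the replicate number as a block 6 of the 8 were called in 3D against 2D (AZIN1 lost, limma adjusted p = 0.0544). In SP14 5 were called (AMD1 lost, 0.0527) and in E. coli 4 (ARG2 lost, 0.0523), and the other counts were equal. Counts over all genes for these comparisons with the block are not given here. Raising the cell filter to 2000 UMIs moved 3 of 32 single-cell levels beyond their intervals, by a ratio of 0.977 to 1.03; the other settings moved 0.

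Over all genes tested, the number called rose without the E. coli libraries in the fit from 2254 to 3501 (day 16 against day 12), 121 to 246 (day 19 against day 16), 1745 to 2974 (day 23 against day 19), 1058 to 1822 (day 23 against day 16 within FBS), 2480 to 3732 and 1887 to 3069 (FBS at days 16 and 23), 1864 to 3362 (interaction) and 8 to 34 (SP14 against SP6A). With array weights these were 4487, 650 and 3301 for the first 3, 2916 for FBS at day 23, 3079 for the interaction and 846 for SP14 against SP6A, and SP6A went from 3774 to 7419, SP14 from 4173 to 7444 and E. coli from 7558 to 1101. With no filter on low values they were 7277 in SP6A, 669 for SP14 against SP6A and 78 for day 19 against day 16. SP14 against SP6A gave 31 after leaving out the clone-named and mitochondrial genes, 17 with the replicate block and 4 without the trend. Leaving out 1 library gave 39 to 77 for day 19 against day 16, 955 for day 23 against day 19 (without the first day 19 library), 1626 with FBS at day 16 (without the third day 16 library), 2111 and 2341 in SP6A, 2582 and 2735 in SP14, and 5 for SP14 against SP6A (without the first SP6A library). Median-ratio scaling changed the split from 57 up and 64 down to 70 and 40 for day 19 against day 16. Read depth of the bulk libraries is unknown, so no limit of detection is given.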
